A study of Mus musculus with 7 samples.

Results

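Levels of 6 genes that mark simple, single-layered epithelium were followed across all 7 libraries: Krt7, Krt8, Krt18 and Krt19, which encode the keratins of simple epithelia, Epcam, which encodes the epithelial cell adhesion molecule, and Cdh1, which encodes E-cadherin. They are listed by name, not picked by a threshold on their values (KRT7, KRT8, KRT18, KRT19, EPCAM and CDH1 in the table, which prints symbols in capitals), and are 6 of the 24353 genes listed. The libraries hold total RNA from cells labelled as endometrial epithelium of C57BL/6 female mice, every one of which had its ovaries removed. Of 18 mice oophorectomized at 6 to 7 weeks of age, 6 per arm were randomized to vehicle, to tamoxifen (0.5 mg per day, injected under the skin in peanut oil), or to the same tamoxifen with alpelisib (30 mg/kg per day by mouth), all for 28 days. Another 2 mice carried a slow-release estradiol pellet (0.01 mg) over 28 days. The files hold 1 vehicle library and 2 each for estradiol, tamoxifen, and tamoxifen plus alpelisib. Tamoxifen binds the estrogen receptor, blocking it in the breast while partly activating it in the uterus, and alpelisib is an inhibitor selective for PI3K alpha. The vehicle group therefore has no SD, and the labels do not say if its library is of 1 mouse or of several. The uterine horns were collected, and how the epithelium was separated from them is not stated. The question for these genes is how estrogen, tamoxifen and PI3K inhibition relate to the levels of the epithelium's own cytoskeletal and adhesion transcripts.

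Keratins are intermediate filament proteins that assemble as obligate pairs of a type I and a type II chain. In simple epithelia such as the lining of the uterus the primary pair is Krt8 (type II) with Krt18 (type I), to which Krt7 (type II) and Krt19 (type I) are added in ductal and glandular epithelia. E-cadherin joins neighbouring cells through calcium-dependent contacts and is held to the actin cytoskeleton by catenins, whereas EpCAM is a membrane glycoprotein that mediates weaker contacts and can signal after cleavage. All 6 are widely used to mark epithelial cells.

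Promoter sequences are shown because repressors of E-cadherin are known to act through E-boxes in the promoters of epithelial genes. RefSeq's GRCm38.p6 table gave the 250 bases before the start site for 4 of the 6 genes, and Krt19 and Cdh1 were not among them. The sequences are printed 5′ to 3′ on the strand of the gene, with capitals marking the E2 box CACCTG on either strand (read as CAGGTG where it lies on the other strand). Krt7 is from chr15:101412153-101412402 on the plus strand, Krt8 from chr15:102004343-102004592 on the minus strand, Krt18 from chr15:102027966-102028215 on the plus strand, and Epcam from chr17:87635729-87635978 on the plus strand.
Krt7: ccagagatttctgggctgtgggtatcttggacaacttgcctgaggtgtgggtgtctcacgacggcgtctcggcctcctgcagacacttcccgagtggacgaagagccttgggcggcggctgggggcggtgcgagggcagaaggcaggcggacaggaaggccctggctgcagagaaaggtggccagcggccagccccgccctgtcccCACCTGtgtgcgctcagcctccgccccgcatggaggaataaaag
Krt8: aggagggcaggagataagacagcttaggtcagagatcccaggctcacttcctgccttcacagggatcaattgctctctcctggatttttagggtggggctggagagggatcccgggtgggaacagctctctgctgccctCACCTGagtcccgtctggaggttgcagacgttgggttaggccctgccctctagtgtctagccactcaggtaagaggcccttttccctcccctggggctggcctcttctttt
Krt18: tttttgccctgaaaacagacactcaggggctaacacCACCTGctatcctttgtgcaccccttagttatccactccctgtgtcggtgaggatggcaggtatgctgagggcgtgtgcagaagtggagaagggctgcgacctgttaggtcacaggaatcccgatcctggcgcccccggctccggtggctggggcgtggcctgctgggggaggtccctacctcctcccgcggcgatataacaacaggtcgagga
Epcam: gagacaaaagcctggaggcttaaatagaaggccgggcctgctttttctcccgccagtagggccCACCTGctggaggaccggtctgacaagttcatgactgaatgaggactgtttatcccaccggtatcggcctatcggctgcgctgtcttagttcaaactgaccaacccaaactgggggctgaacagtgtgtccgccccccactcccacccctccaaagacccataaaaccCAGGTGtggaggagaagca
Each of the 4 windows held the E2 box. It began 44 bases before the start site in Krt7 (-44), at -111 in Krt8 and at -214 in Krt18, while Epcam had sites at -187 and -19. By comparison, 5657 of 32851 promoter windows of this length (17.2%) held at least 1. An AP-1 site (TGANTCA, in 6.75% of the windows), a FOXO site (GTAAACA, 3.17%) and the full palindromic estrogen response element (0.0639%), each searched on both strands with no overlap with the E2 box, had 0 matches in these 4. A match describes letters in a window and is no evidence of binding. Krt8 and Krt18 are neighbours on chromosome 15 with 0 protein-coding genes between them.

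Depth was estimated from the smallest steps in the values at 16.2 to 19.2 M fragments in 6 libraries. The estradiol 2 library showed no clear step, so its depth is unknown, and it also had the lowest sum of FPKM (264322, against 320527 to 403562 in the others). At that depth the member with the fewest estimated fragments, Cdh1 in tamoxifen 2, still had about 6479, so counting error is small beside the differences between libraries. The labelled epithelium was checked against other markers. A list of 14 further endometrial epithelial markers summed to an FPKM of 2744 in vehicle, 1190 to 1659 with estradiol, 1761 to 2574 with tamoxifen and 3103 to 3378 with tamoxifen plus alpelisib. Their median log2 difference from vehicle was 0.33 with estradiol, -0.28 with tamoxifen and 0.19 with tamoxifen plus alpelisib. Over all genes tested it was 0.12, -0.12 and -0.15. The sums lean on Cldn4, at 1442 in vehicle, 170 and 95.2 with estradiol, 213 and 479 with tamoxifen and 1110 and 1251 with the combination. Stromal fibroblast markers (12 genes) summed to 270.4, 181 to 191, 70.5 to 73.6 and 130 to 138 in the same order, smooth muscle markers (8 genes) to 74.1, 6.61 to 9.48, 20.1 to 22.6 and 17.1 to 18.1, and endothelial markers (9 genes) to 20.0, 10.3 to 12.2, 3.15 to 3.38 and 2.13 to 2.17. The vehicle library thus had the highest sums of these stromal, muscle and endothelial lists. The stromal sum leans on Dcn (144 in vehicle) and Vim (51.7 in vehicle). Col1a1, Col1a2, Col3a1 and Postn were not highest in vehicle, while the rest of the stromal list was. Leukocyte markers (10 genes) were at 25.6, 39.2 to 55.6, 70.4 to 83.7 and 59.2 to 59.9. Itgam alone was at 0.41 in vehicle, 10.1 and 8.80 with estradiol, 51.5 and 56.0 with tamoxifen and 31.7 and 33.0 with the combination. In the test described below, 1 of 6 leukocyte markers rose and 4 fell with tamoxifen against estradiol. Their median log2 difference was -1.85, and 12.3% of all genes rose and 36.2% fell. Among the 6 markers, Adgre1 and Csf1r reached an FPKM of 1 only with estradiol, so the filter on low values set their direction. S100a8 reached it only with estradiol and the combination. Nothing is therefore read from these counts. The higher tamoxifen sum leans on Itgam. Mesothelial markers (5 genes), from the outer lining of the uterus, which also makes simple keratins, were at 26.2, 31.8 to 35.5, 11.2 to 13.9 and 31.4 to 33.6. Erythroid markers (7 genes) reached 1116 to 1535 with tamoxifen, against 36.2, 89.1 to 130 and 292 to 312 in vehicle, estradiol and the combination. The part these lists play in the results below was not tested. In bulk RNA, fewer cells of a type and less RNA per cell cannot be told apart.

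The simple keratins were among the most abundant transcripts of every library. Krt8 ranked between 18 (vehicle) and 64 (estradiol 1) among all genes by FPKM, a value per length of transcript, and Krt19 between 22 and 86. Cdh1 ranked lowest of the 6, between 263 in vehicle and 607 in tamoxifen 2. The lengths the authors used are not given, so comparisons of levels between genes are approximate. The 6 genes did not move as a block: Krt7 was highest under tamoxifen, Krt8, Krt18 and Cdh1 were highest in vehicle, and Epcam varied little.

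**Figure D1:**
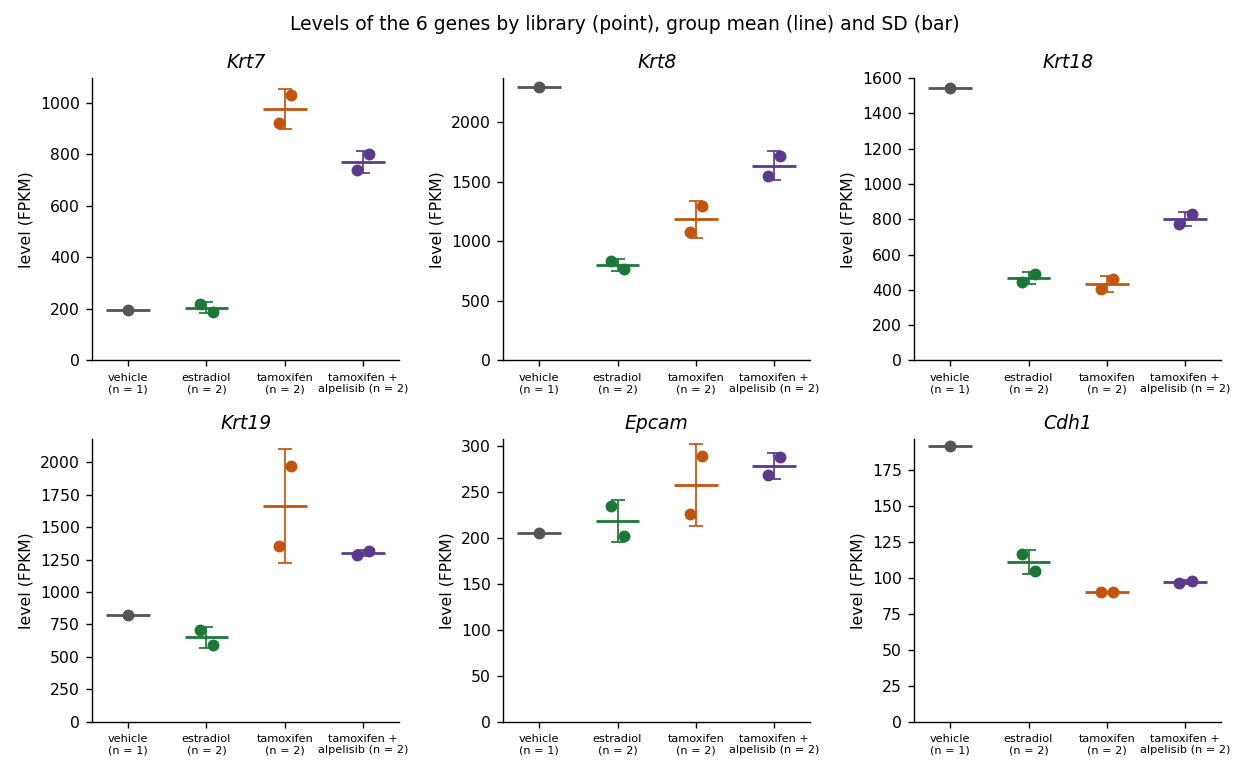
Levels (FPKM, linear axes from 0) of the 6 genes in each of the 7 libraries, as points, with the group mean as a line and the SD as a bar for groups of 2. Krt7 is near 200 in vehicle and estradiol and at 739 to 1030.4 in the 4 tamoxifen-treated libraries, while Cdh1 is at 191 in vehicle and at or under 117 in the other 6.

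Differences were tested with limma on log2(FPKM + 1) over 12314 genes, with p-values adjusted by the Benjamini-Hochberg method over all of them. Against vehicle, 3 of the 6 genes passed an adjusted p of 0.05 with tamoxifen (Krt7 higher, Krt18 and Cdh1 lower), where 39% of all genes tested passed, 14.9% higher and 24.1% lower. With estradiol 3 passed (Krt8, Krt18 and Cdh1, all lower), where 35.5% of all genes did (22.7% higher and 12.8% lower). With tamoxifen plus alpelisib 3 passed (Krt7 higher, Krt18 and Cdh1 lower), against 34.9% of all genes (13.1% higher and 21.8% lower). These 3 comparisons share the single vehicle library. With only the compared groups in the fit, which leaves 1 residual degree of freedom, 0 passed for estradiol and all 6 for the combination. The share of all genes that passed in those fits was not worked out, so nothing is read from those counts. Against estradiol, 2 passed with tamoxifen (Krt7 and Krt19, both higher), against 48.5% of all genes (12.3% higher and 36.2% lower), and 4 with tamoxifen plus alpelisib (the 4 keratins, all higher), against 53.2% (15.7% higher and 37.5% lower). Between tamoxifen plus alpelisib and tamoxifen alone 0 of the 6 passed in limma, where 11.7% of all genes did (6.93% higher and 4.81% lower). One of them, Krt18, had an unadjusted p under 0.05. With 6 genes these counts are a description beside the shares of all genes, and nothing is read from them alone. With median-of-ratios scaling, the median log2 difference over all genes went from -0.12 to 0.02 for tamoxifen against vehicle and from -0.26 to 0.01 for tamoxifen against estradiol. The share of all calls that were higher then moved from 38.2% to 49.7% and from 25.4% to 52.4%. For estradiol against vehicle that share moved from 64.0% to 48.4%, for the combination against vehicle from 37.7% to 51.2%, and for the combination against estradiol from 29.6% to 52.6%. Under this scaling 5 of the 6 passed for tamoxifen against vehicle and 5 for the combination against vehicle. Of the 12314 genes, 2497 then passed as higher and 2525 as lower in the first comparison, and 2226 and 2122 in the second.

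**Figure D2:**
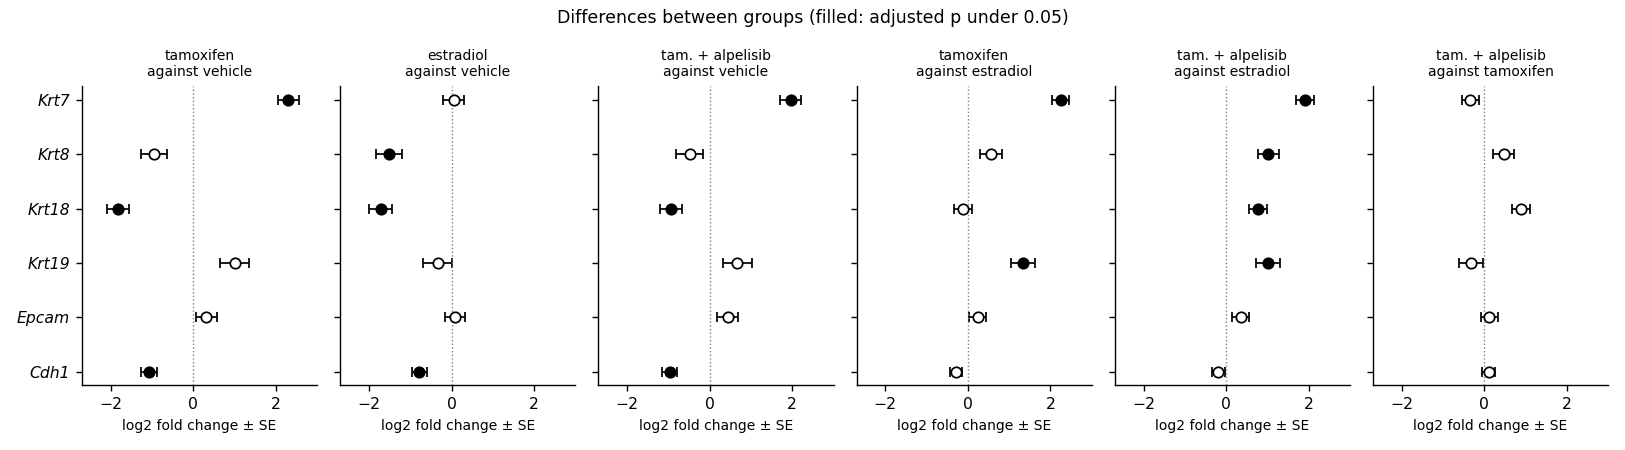
Differences in log2(FPKM + 1) between groups, ± SE of the limma fit, for the 6 genes in the 6 comparisons; filled points have an adjusted p under 0.05. Krt7 lies near +2 in each of the 4 comparisons of tamoxifen, alone or with alpelisib, with vehicle or estradiol, and no point is filled for tamoxifen plus alpelisib against tamoxifen.

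Krt7, the type II keratin of ductal and glandular epithelia, had an FPKM of 197 in the vehicle library and of 219 and 190.1 in the estradiol libraries. With tamoxifen it stood at 920.5 and 1030.4, and after the combination with alpelisib at 739 and 800.3. Both tamoxifen-treated groups lay above vehicle and estradiol with no overlap, while vehicle fell between the estradiol libraries. The group means were 205 ± 20.7 (SD, n = 2) with estradiol, 975 ± 77.7 (SD, n = 2) with tamoxifen and 769.8 ± 43.2 (SD, n = 2) with the combination. Tamoxifen was higher than vehicle by 2.30 ± 0.26 on the log2 scale (limma adjusted p = 0.00119), a 4.96-fold ratio of the means. It was higher than estradiol by 2.25 ± 0.21 (limma adjusted p = 0.000574). The combination was higher than vehicle by 1.96 ± 0.26 and than estradiol by 1.91 ± 0.21 (limma adjusted p = 0.00259 and 0.000796). Estradiol differed from vehicle by 0.05 ± 0.26 (limma adjusted p = 0.891). With alpelisib the level was lower than with tamoxifen alone in both libraries, by a log2 difference of -0.34 ± 0.21 that did not pass (limma adjusted p = 0.338). In order, tamoxifen and the combination were not separated beyond the spread, nor were estradiol and vehicle, and the step between these pairs was. The rise of Krt7 in the 4 comparisons passed the threshold under all 13 alternatives against vehicle and all 15 against estradiol.

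Krt8, the type II partner of the primary pair, was the most abundant of the 6 genes in vehicle, at an FPKM of 2295. It was lower in each of the other 6 libraries: 839 and 769 with estradiol, 1076 and 1297 with tamoxifen, and 1551 and 1719.9 with the combination. No 2 groups overlapped, and the order of the means was vehicle, combination (1636 ± 119), tamoxifen (1187 ± 156) and estradiol (804 ± 49.6; SD, n = 2 each). No neighbouring groups in that order differed by the test without further scaling (limma adjusted p = 0.284, 0.2996 and 0.126). Under median-of-ratios scaling tamoxifen passed as higher than estradiol (0.92, limma adjusted p = 0.0118). Estradiol fell below vehicle by 1.51 ± 0.32 on the log2 scale (limma adjusted p = 0.0147). This call was lost without tamoxifen plus alpelisib 1 or 2 (adjusted p = 0.0679 and 0.0661), which enter only the estimate of the spread. Tamoxifen was at -0.96 ± 0.32 against vehicle (limma adjusted p = 0.0579), and passed under 4 of 13 alternatives. The combination exceeded estradiol by 1.02 ± 0.26 (limma adjusted p = 0.0179), and not without tamoxifen plus alpelisib 1 or 2 (adjusted p = 0.123 and 0.165) or with no filter on low values (0.0575). Between the combination and tamoxifen alone the difference was 0.47, with a 95% interval of -0.17 to 1.10 (limma adjusted p = 0.2996). A processed pseudogene of Krt8 is annotated in the mouse, and how the authors' counting shared reads between the copies is not given, so the level of Krt8 carries that uncertainty.

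Krt18, the type I partner of Krt8, had an FPKM of 1542 in vehicle. Estradiol libraries stood at 444 and 491, tamoxifen libraries at 403 and 463, and those of the combination at 775 and 831. The combination lay above both other treated groups and below vehicle with no overlap, while the estradiol and tamoxifen libraries overlapped. Its means were 468 ± 33.2 with estradiol, 433 ± 42.7 with tamoxifen and 803 ± 39.6 with the combination (SD, n = 2 each). Tamoxifen fell below vehicle by 1.83 ± 0.27 on the log2 scale (limma adjusted p = 0.0033), a call kept under all 13 alternatives. Estradiol fell by 1.72 ± 0.27 (limma adjusted p = 0.00548). Estradiol and tamoxifen were not separated in the fit without further scaling (a log2 difference of -0.11 ± 0.22, limma adjusted p = 0.697). Under quantile normalization tamoxifen passed as lower than estradiol (-0.62, limma adjusted p = 0.0429). The sign turned under median-of-ratios scaling (0.25, limma adjusted p = 0.307). The combination fell below vehicle by 0.94 ± 0.27 (limma adjusted p = 0.0386). That call was lost without any single tamoxifen or combination library (adjusted p from 0.0587 without tamoxifen 2 to 0.228 without tamoxifen plus alpelisib 1) under quantile normalization (-0.47, adjusted p = 0.185) and with no filter (0.0573). Against estradiol the combination was higher by 0.78 ± 0.22 (limma adjusted p = 0.0253), lost without tamoxifen plus alpelisib 1 or 2 (adjusted p = 0.153 and 0.197) and under quantile normalization (0.144). Of the 6 genes, Krt18 had the lowest p for alpelisib added to tamoxifen. It was higher by 0.89 ± 0.22 on the log2 scale, with a 95% interval of 0.36 to 1.43 and an unadjusted limma p of 0.00615. After adjustment over all genes this missed the threshold (limma adjusted p = 0.0512), and across the 15 alternatives the adjusted p ran from 0.0219 to 0.379 and passed in 8.

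Krt19, the smallest type I keratin, which lacks most of the tail domain of the others, stood at 819.98 in vehicle (FPKM) and at 705 and 595 with estradiol. Tamoxifen libraries were at 1356 and 1974, and those of the combination at 1286 and 1318. The tamoxifen-treated groups lay above vehicle and estradiol, and the tamoxifen pair was the most widely spread of any group for these genes. The means were 650.0 ± 78.2 with estradiol, 1665 ± 438 with tamoxifen and 1302 ± 22.7 with the combination (SD, n = 2 each). Tamoxifen exceeded estradiol by 1.34 ± 0.29 on the log2 scale (limma adjusted p = 0.011), but not without tamoxifen 2 (1.06, adjusted p = 0.0566). The combination exceeded estradiol by 1.01 ± 0.29 (limma adjusted p = 0.0268), lost without tamoxifen plus alpelisib 1 or 2 or without estradiol 2 (adjusted p = 0.157, 0.167 and 0.0759), and with no filter (0.073). Against vehicle, tamoxifen was at 0.996 ± 0.35 and the combination at 0.67 ± 0.35 (limma adjusted p = 0.068 and 0.194), and estradiol at -0.34 ± 0.35 (limma adjusted p = 0.491). Under quantile normalization both tamoxifen-treated groups passed against vehicle (1.23 and 0.97, adjusted p = 0.00188 and 0.00601). No neighbours in the order tamoxifen, combination, vehicle, estradiol differed by the test.

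In the make-up of the simple keratin pool, the shares of Krt7, Krt8 and Krt18 did not overlap between any of the 4 groups. Those of Krt19 overlapped between estradiol and the combination. How often shares of other genes fail to overlap in groups of this size was not worked out, so nothing is read from this alone. In vehicle, Krt8 and Krt18 made 47.3% and 31.8% of the summed FPKM of the 4 keratins, and Krt7 only 4.05%. With tamoxifen, Krt7 made 24.5% and 21.6% in the 2 libraries and Krt18 10.7% and 9.72%. The combination lay between, with Krt7 at 17.0% and 17.1% and Krt18 at 17.8% in both, and estradiol had Krt7 at 9.93% and 9.30%. The share of Krt19 was 16.9% in vehicle, 31.9% and 29.1% with estradiol, 36.1% and 41.4% with tamoxifen, and 29.5% and 28.2% with the combination. These shares do not depend on the scaling of a library. The ratio of Krt7 to Krt8, the type II chains, was 0.0857 in vehicle, 0.261 and 0.247 with estradiol, 0.855 and 0.794 with tamoxifen, and 0.477 and 0.465 with the combination. No groups overlapped in this ratio. The ratio of Krt19 to Krt18, the type I chains, was 0.532 in vehicle, 3.36 and 4.26 with tamoxifen, 1.66 and 1.59 with the combination, and 1.59 and 1.21 with estradiol, so that the combination and estradiol met near 1.59. The primary pair shifted less: Krt8 to Krt18 was 1.49 in vehicle, 1.89 and 1.56 with estradiol, 2.67 and 2.80 with tamoxifen and 2.002 and 2.07 with the combination. No test was run on these ratios, which are given as values per library. An exact permutation test of 2 libraries against 2 could not give a two-sided p under 0.333.

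Type II and type I chains pair one to one in the filament, and the summed FPKM of these 4 keratins stayed near parity between the types. Stratified keratins such as Krt5, Krt14 and Krt17 were left out of this ratio. It also depends on transcript lengths that are not given, so it is no measure of pairing. Krt7 plus Krt8 over Krt18 plus Krt19 was 1.05 in vehicle, 0.920 and 0.883 with estradiol, 1.14 and 0.955 with tamoxifen and 1.11 and 1.17 with the combination. All 7 libraries lay between 0.883 and 1.17, although the single ratios of Krt7 to Krt8 spanned 0.0857 to 0.855. The summed FPKM of the 4 keratins was 4854 in the vehicle library, 3755 and 4765 in those of tamoxifen and 4351 and 4669 in those of the combination, and lower with estradiol at 2208 and 2045. As a share of all FPKM this was 1.27% in vehicle, 1.17% and 1.18% with tamoxifen, 1.22% and 1.23% with the combination and 0.683% and 0.774% with estradiol. The sum of 10 stratified keratins, made by multilayered epithelia, was 325 in vehicle, 198 and 192 with estradiol, 486 and 444 with tamoxifen and 831 and 847 with the combination. Krt17 alone was at 277 in vehicle, 18.6 and 14.4 with estradiol, 4.06 and 7.13 with tamoxifen and 20.8 and 22.6 with the combination. Krt5 plus Krt14 ran the other way from vehicle, at 27.4, 135 and 138, 354 and 309, and 515 and 524 in the same order. The vehicle sum and the ratio taken from it therefore rest mostly on Krt17. Simple keratins outweighed them 14.9-fold in vehicle, 11.2-fold and 10.7-fold with estradiol, 7.73-fold and 10.7-fold with tamoxifen, and 5.24-fold and 5.51-fold with the combination. The wider squamous list (13 genes, Krt17 among them) summed to 345 in vehicle, 194 to 200.4 with estradiol, 447 to 488 with tamoxifen and 836 to 852 with the combination.

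**Figure D3:**
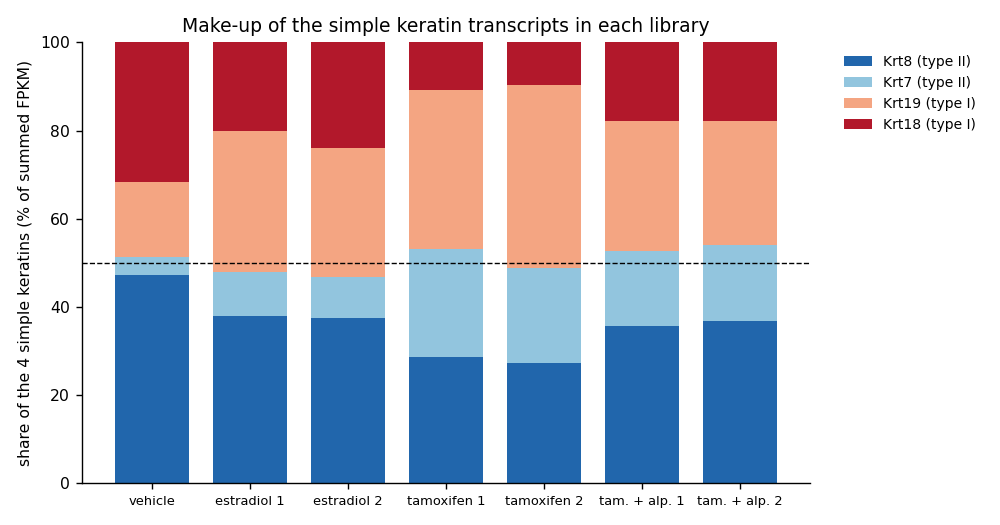
Share of each keratin in the summed FPKM of the 4 simple keratins (percent, stacked to 100) in each library, type II chains below and type I chains above, with a dashed line at 50%. The boundary between the types stays near the line while Krt7 grows from 4.05% in vehicle to 24.5% in tamoxifen 1 and Krt18 shrinks from 31.8% to 10.7%.

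Epcam had the narrowest range of the 6 genes. Its FPKM was 206 in vehicle, 234 and 202 with estradiol, 226 and 289 with tamoxifen, and 268 and 288 with the combination. The groups overlapped in part, and the vehicle library lay within the estradiol pair. The means were 218 ± 23.0 with estradiol, 258 ± 44.6 with tamoxifen and 278 ± 14.1 with the combination (SD, n = 2 each). No comparison passed in the fit without further scaling: tamoxifen differed from vehicle by 0.31 ± 0.25 on the log2 scale (limma adjusted p = 0.363), estradiol by 0.08 ± 0.25 (0.827) and the combination by 0.43 ± 0.25 (0.229). Against estradiol the differences were 0.23 ± 0.21 with tamoxifen (limma adjusted p = 0.384) and 0.35 ± 0.21 with the combination (0.194). Their sign depended on the scaling, being -0.33 and -0.28 under quantile normalization. Under median-of-ratios scaling Epcam passed as higher than estradiol with tamoxifen (0.59, adjusted p = 0.023) and with the combination (0.72, 0.0096), and as higher than vehicle with the combination (0.63, 0.0446). The last also passed with only the compared groups in the fit (0.0174). The difference between the combination and tamoxifen was 0.12, with a 95% interval of -0.38 to 0.62 (limma adjusted p = 0.750). Without such scaling no neighbours in the order of the means were separated, which does not show that the levels were the same.

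Cdh1 was highest in the vehicle library, at an FPKM of 191. It was at 117 and 105 with estradiol, 90.1 and 90.3 with tamoxifen, and 96.1 and 97.9 with the combination. Vehicle stood apart from all 6 treated libraries, and the treated groups did not overlap one another but lay close. Their means were 111 ± 8.28, 90.2 ± 0.14 and 97.0 ± 1.22 (SD, n = 2 each). Cdh1 fell below vehicle by 1.08 ± 0.18 on the log2 scale with tamoxifen (limma adjusted p = 0.00565), fell by 0.79 ± 0.18 with estradiol (0.0198) and fell by 0.97 ± 0.18 with the combination (0.0096). All 3 rest on 1 vehicle library, and the tamoxifen call was lost with only the compared groups in the fit (adjusted p = 0.0517). The estradiol call was lost without tamoxifen plus alpelisib 1 or 2 (adjusted p = 0.0831 and 0.0832) and under quantile normalization (0.0631), and that of the combination without the same libraries (0.0896 and 0.0822). In the fit without further scaling the 3 treated groups were not separated: tamoxifen differed from estradiol by -0.29 ± 0.15 (limma adjusted p = 0.154), the combination from estradiol by -0.19 ± 0.15 (0.329) and from tamoxifen by 0.10 ± 0.15 (0.700, 95% interval -0.26 to 0.47). Differences from estradiol changed sign under median-of-ratios scaling (0.07 and 0.18), and under quantile normalization they passed as lower (-0.60 with tamoxifen, adjusted p = 0.0197, and -0.57 with the combination, 0.0202). Set against Epcam in the same library, which removes the scaling, Cdh1 had a ratio of 0.930 in vehicle, 0.497 and 0.519 with estradiol, 0.398 and 0.312 with tamoxifen and 0.358 and 0.339 with the combination. The stromal, smooth muscle and endothelial marker sums were also highest in vehicle, and their part in the fall of Cdh1 was not tested.

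For 3 catenins that hold E-cadherin, no fall passed the test with tamoxifen against vehicle; their difference from Cdh1 was not tested itself. They were picked out from the adherens junction list as its direct partners after their values had been seen. Ctnna1, the alpha-catenin that links the complex to actin, stood at 107 in vehicle (FPKM), 103 and 86.1 with estradiol, 98.2 and 88.1 with tamoxifen and 97.5 and 96.8 with the combination. Tamoxifen differed from vehicle by -0.20 ± 0.20 for Ctnna1, 0.08 ± 0.20 for Ctnnb1 (beta-catenin) and -0.25 ± 0.19 for Ctnnd1 (p120-catenin), none of which passed (limma adjusted p = 0.467, 0.785 and 0.331). The sign for Ctnnb1 turned under quantile normalization (-0.09). The ratio of Cdh1 to Ctnna1 was 1.79 in vehicle, 1.13 and 1.22 with estradiol, 0.917 and 1.02 with tamoxifen and 0.986 and 1.01 with the combination, so vehicle lay above all treated libraries. Jup, the plakoglobin shared with desmosomes, followed another order, at 62.6 in vehicle, 38.9 and 36.6 with estradiol, 81.5 and 91.7 with tamoxifen and 131 and 138 with the combination. It rose with alpelisib added to tamoxifen, by 0.64 ± 0.15 (limma adjusted p = 0.0421). This call was lost without any 1 of the 4 libraries compared (adjusted p from 0.0781 without tamoxifen 2 to 0.328 without tamoxifen plus alpelisib 2).

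**Figure D4:**
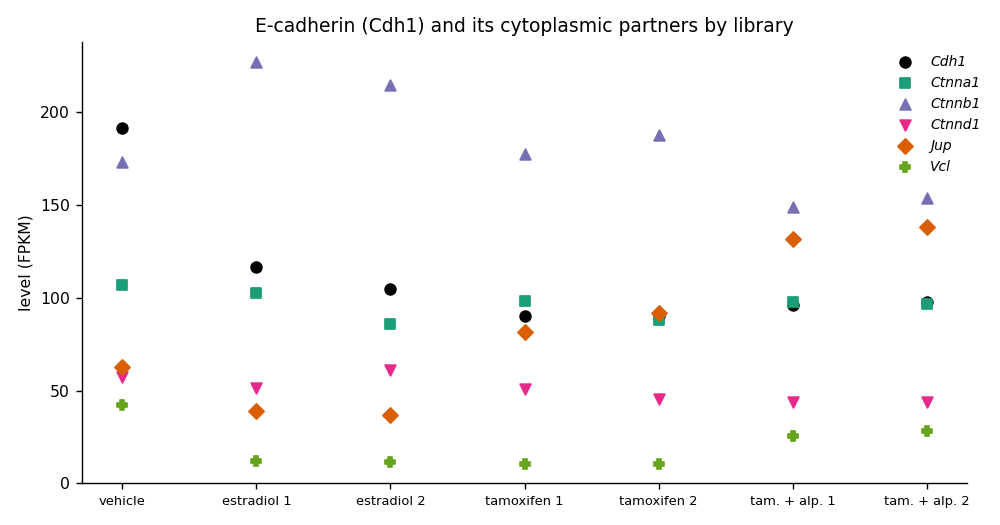
Levels (FPKM, linear axis from 0) of Cdh1, 4 catenins (Ctnna1, Ctnnb1, Ctnnd1, Jup) and vinculin (Vcl) in each library. Cdh1 is above Ctnna1 in vehicle (191 and 107) and overlies it near 97 with tamoxifen plus alpelisib, while Jup is highest there at 131 and 138.

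Of 25 genes of the adherens junction list 23 were tested. With tamoxifen 3 rose and 12 fell against vehicle, where 14.9% of all genes rose and 24.1% fell, with a median log2 difference of -0.66 beside -0.12 over all genes. Actn1, an actin cross-linker, fell from 169 in vehicle to 30.7 and 33.0, a log2 difference of -2.37 ± 0.17 (limma adjusted p = 0.000251). Vcl, which binds alpha-catenin under tension, fell from 42.5 to 10.3 and 10.5 (-1.94 ± 0.15, 0.000345), and Arvcf, a relative of p120-catenin, fell by 2.02 ± 0.18 (0.000522). Cdh16, a kidney-type cadherin, was at 9.18 in vehicle, 0.55 and 0.99 with estradiol, and listed at 0 in the 4 tamoxifen-treated libraries. It was tested only through vehicle, so its fall against vehicle, counted above, was set by the filter. With alpelisib added to tamoxifen 3 rose and 0 fell. Vcl was among them, at 25.5 and 28.1 against 10.3 and 10.5 (1.29 ± 0.12, limma adjusted p = 0.00487), as were Jup and the nectin Pvrl2 (0.71 ± 0.17, 0.0465). Estradiol against vehicle gave 5 higher and 4 lower, the combination against vehicle 4 and 11, tamoxifen against estradiol 3 and 13, and the combination against estradiol 4 and 13. Over all genes, shares higher and lower in these comparisons were 22.7% and 12.8%, 13.1% and 21.8%, 12.3% and 36.2%, and 15.7% and 37.5%. For alpelisib added to tamoxifen they were 6.93% and 4.81%. The same shares apply to the lists below.

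Among 13 keratin partners and keratin-binding proteins, 1 rose and 4 fell with tamoxifen against vehicle (median -0.43 on the log2 scale), beside the 14.9% and 24.1% of all genes that did. These counts are near those shares. Krt80, a type II keratin of differentiating epithelia, fell from 77.6 to 3.48 and 4.78 (a log2 difference of -3.95 ± 0.20, limma adjusted p = 9.05e-05), the opposite direction to Krt7. Eppk1, or epiplakin, which binds keratin filaments, fell from 20.7 to 2.82 and 2.16 (-2.65 ± 0.38, 0.00309), and Ppl, or periplakin, fell by 1.30 ± 0.26 (0.01). Krt23, a type I keratin, fell by 1.16 ± 0.25 (0.0135), though not without tamoxifen 1 (adjusted p = 0.0556). With alpelisib added, 2 rose and 0 fell: Krt23 reached 8.28 and 9.96 against 1.16 and 1.503 (2.12 ± 0.21, limma adjusted p = 0.00487) and Krt80 15.4 and 13.4 against 3.48 and 4.78 (1.59 ± 0.16, 0.0055). Counts of higher and lower genes were 1 and 4 for estradiol against vehicle, 1 and 3 for the combination against vehicle, 1 and 4 for tamoxifen against estradiol, and 4 and 3 for the combination against estradiol. Krt20, counted as higher in the last, reached an FPKM of 1 only in tamoxifen-treated libraries, so its direction was set by the filter. Shares of all genes are those given for the adherens junction list.

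Of 16 relatives, partners and proteases of EpCAM, 4 rose and 2 fell with tamoxifen against vehicle (median -0.001), beside the same 14.9% and 24.1% of all genes. The cleaving enzymes Adam17 and Adam10 rose, Adam17 from 4.46 to 15.8 and 14.9 (1.58 ± 0.16, limma adjusted p = 0.000772) and Adam10 from 11.2 to 29.5 and 27.5 (1.27 ± 0.15, 0.00147). Fhl2, a partner of the cleaved tail of EpCAM, fell from 43.4 to 1.29 and 4.08 (-3.70 ± 0.45, 0.00168). It was the 1 gene of this list to pass when alpelisib was added, at 19.6 and 25.7 (2.78 ± 0.37, limma adjusted p = 0.0091). The list's counts of higher and lower genes were 4 and 3 for estradiol against vehicle, 4 and 0 for the combination against vehicle, 4 and 2 for tamoxifen against estradiol, and 5 and 2 for the combination against estradiol. Shares of all genes are those given for the adherens junction list.

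Transcription and splicing factors of the epithelial state numbered 19, of which 17 were tested. With tamoxifen 6 rose and 2 fell against vehicle (median 0.67), beside 14.9% and 24.1% of all genes. Ovol1, a zinc finger factor of epithelial differentiation, rose from 0.88 to 5.91 and 8.29 (2.09 ± 0.22, limma adjusted p = 0.000965), and Spdef, a factor of secretory cells, from 0.15 to 1.72 and 1.58 (1.20 ± 0.15, 0.00183). Spdef, Grhl3 and Tfap2c were tested only through tamoxifen-treated libraries, so their direction against vehicle and estradiol was set by the filter. The counts and median of this list take these genes in, so nothing is read from them. Klf5 fell from 70.7 to 18.6 and 19.95 (-1.83 ± 0.16, 0.000507). With alpelisib added, 2 rose and 0 fell: Klf5 stood at 55.7 and 54.9 (1.48 ± 0.13, limma adjusted p = 0.00418) and Foxa1, a pioneer factor, at 9.99 and 10.6 against 1.73 and 2.39 (1.89 ± 0.20, 0.00571). Counts of higher and lower were 3 and 2 for estradiol against vehicle, 5 and 1 for the combination against vehicle, 7 and 4 for tamoxifen against estradiol, and 8 and 2 for the combination against estradiol. Shares of all genes are those given for the adherens junction list.

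Most of the listed repressors of Cdh1 were low. Of 11, 7 were under an FPKM of 1 throughout and were not tested. Snai1, whose protein binds the E2 box, peaked at 0.89 in vehicle, Zeb1 at 0.44 and Zeb2 at 0.64. The other 4 (Twist1, Twist2, Tcf3 and Tcf4) all fell with tamoxifen against vehicle (median -1.32), as 24.1% of all genes did. Tcf3, which encodes the E2A proteins, was the most abundant, at 25.5 in vehicle, 30.8 and 30.4 with estradiol, 8.09 and 10.6 with tamoxifen and 9.67 and 10.4 with the combination (-1.37 ± 0.19 with tamoxifen against vehicle, limma adjusted p = 0.00269). The levels of Twist1 and Twist2 were 2.45 and 2.14 in vehicle and under an FPKM of 1 in the tamoxifen libraries. Twist2 was under 1 in every library but vehicle. It was tested only through vehicle, so its fall against vehicle was set by the filter and is no support. The part of any listed repressor in the level of Cdh1 was not tested. Stromal marker sums were also highest in vehicle, and their part in the levels of these 4 genes was not tested either. With estradiol 2 of the 4 fell against vehicle (12.8% of all genes), and with the combination 4 did (21.8%). Against estradiol, 3 fell with tamoxifen (36.2% of all genes) and 3 with the combination (37.5%). With alpelisib added to tamoxifen 0 of the 4 passed.

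Apical-basal polarity genes (14 tested) gave 0 higher and 4 lower with tamoxifen against vehicle (median -0.31), beside 14.9% and 24.1% of all genes. Prkci, an atypical protein kinase C of the Par complex, fell from 54.5 to 6.17 and 7.16 (a log2 difference of -2.86 ± 0.16, limma adjusted p = 0.000119). Pard3 fell by 1.02 ± 0.17 (0.00536), Dlg1 fell by 0.64 ± 0.15 (0.0167) and Pard6b fell by 1.15 ± 0.28 (0.02). Without tamoxifen 1 or tamoxifen plus alpelisib 1 the last 2 were lost (adjusted p from 0.0504 to 0.0614), and Dlg1 also without tamoxifen plus alpelisib 2 (0.0612). With alpelisib added, 2 rose and 0 fell. Pard6b, a scaffold of that complex, reached 79.2 and 84.2 against 20.4 and 29.95 (1.68 ± 0.23, limma adjusted p = 0.00977), and Prkci 14.9 and 16.2 (1.11 ± 0.13, 0.00731). Counts of higher and lower were 1 and 4 for estradiol against vehicle, 0 and 3 for the combination against vehicle, 0 and 5 for tamoxifen against estradiol and 4 and 2 for the combination against estradiol. Shares of all genes are those given for the adherens junction list. Each of the 10 calls named here for alpelisib added to tamoxifen, in every list, was lost when tamoxifen plus alpelisib 1 or 2 was left out, with the adjusted p then from 0.0616 upward. Pard6b was also lost without tamoxifen 1 (0.0511), and Pvrl2 without tamoxifen 1 or 2 (0.175 and 0.0719). Robust empirical Bayes ended the calls of Jup (0.0561) and Pvrl2 (0.0541), and the fit with no filter that of Pvrl2 (0.0784).

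The patterns of the 6 genes over the 7 libraries were compared by Pearson's r on log2(FPKM + 1), as a description without a test. The libraries share groups and scale, so r mostly reflects 4 group levels. Krt7 and Krt19 ran together (r = 0.948), as did Krt8 and Krt18 (0.868), whereas Krt7 and Krt18 did not (-0.259). Cdh1 was nearest to Krt18 (0.752) and furthest from Krt7 (-0.716). Epcam was nearest to Krt19 (0.801) and Krt7 (0.789). Among 6423 other genes with a mean FPKM of at least 5, those most like Krt7 were Cbr3 (0.998), Aldoa (0.997) and Tpsab1 (0.996). Those most like Krt8 were Micall1 (0.995), Tnfrsf12a (0.990) and Rnf11 (0.989), and for Krt18 Bcar1 (0.991), Midn (0.987) and Ccdc120 (0.987). Krt19 was most like Bmyc (0.989), Numb (0.985) and Tmbim4 (0.983), Epcam like Ip6k2 (0.993), S100a11 (0.989) and Rabep2 (0.980), and Cdh1 like Mt3 (0.992), Lmna (0.991) and Pla2g10 (0.989). The size of the change differed: Aldoa ranged from an FPKM of 262 to 502, whereas Cbr3 ranged from 3.69 to 54.4.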

How the data were processed

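Total RNA of 7 libraries was sequenced. The authors deposited 1 table of FPKM values per gene (fragments relative to transcript length and to library size), a unit read from the values, which are not whole numbers. Per the submitters' processing notes, CASAVA, Bowtie and Cufflinks were used, without versions. The only build those notes name is the human hg19, while the symbols are those of mouse genes, in capitals. No column of the table was left unused.

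The 6 genes and the gene lists were chosen with earlier results of these data known. Symbols were matched regardless of case. The 12314 genes that reached an FPKM of 1 in any library were fitted with limma-trend on log2(FPKM + 1), using 4 group means over all 7 libraries (3 residual degrees of freedom, plus 3.27 from the empirical Bayes prior). The pseudocount of 1 understates changes of low genes. For a gene that reached an FPKM of 1 only in vehicle, only under 1 treatment or only in tamoxifen-treated libraries, the filter sets the direction of its difference from the other groups. Benjamini-Hochberg adjustment ran over all genes within a comparison, with a threshold of 0.05. Vehicle, with 1 library, is assumed to vary like the other groups. The labels number the mice but do not say how many each library holds, so p-values measure the spread between these libraries. Named list genes are up to 4 per list of lowest p in tamoxifen against vehicle and in tamoxifen plus alpelisib against tamoxifen. Some genes that this rule picks are not reported here. Like genes are the 3 of highest r per member. The fit was tested on simulated data. Alternatives were median-of-ratios scaling, quantile normalization, no filter, a filter of 2 libraries, a pseudocount of 0.1, robust empirical Bayes, only the compared groups, a replicate block, and each replicate left out. Depth was estimated from the values of 4144 genes with 1 transcript. R 4.3.3, limma 3.58.1, Python 3.11.15, numpy 2.4.6, pandas 2.3.3 and matplotlib 3.10.9 were used.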

Additional observations from a re-analysis of the deposited data

How the results depend on the processing

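The calls for Krt7 in its 4 comparisons and for Krt18 with tamoxifen against vehicle passed under every alternative run. Numbers of the 6 genes past the threshold that moved by more than 1.5 times were as follows, and the cause was not tested. Smaller moves are left out. Median-of-ratios scaling gave 5 for tamoxifen against vehicle, 5 for the combination against vehicle, 4 for tamoxifen against estradiol and 1 (Krt18) for the combination against tamoxifen, and quantile normalization gave 4 and 1 for the last 2. In those last 2, median-of-ratios scaling called 2950 of all genes higher and 2684 lower, and 1067 and 729. Quantile normalization called 2523 and 2756, and 906 and 621. No filter left 2 for the combination against estradiol. For the combination against tamoxifen, a filter of 2 libraries, robust empirical Bayes and only the compared groups each gave 1 (Krt18). Only the compared groups gave 0 for estradiol against vehicle and 6 for the combination against vehicle. Shares of all genes were worked out only for the 2 scalings, so nothing is read from the counts under other settings. With each replicate left out in turn, the count ran from 1 to 3 for estradiol and for the combination against vehicle, 1 to 2 for tamoxifen and 1 to 4 for the combination against estradiol, and 0 to 1 for the combination against tamoxifen.

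Different mice were assigned to the groups, so by design the mouse numbers do not pair them. Deviations of same-numbered libraries correlated at -0.403, -0.182 and 0.273. With 2 libraries per group these values cannot decide about pairing. A replicate block over the 6 numbered libraries left 1 call (Krt7) for the combination against estradiol, and ended those of Jup and Pvrl2 for the combination against tamoxifen (adjusted p = 0.117 and 0.113). The same 6 libraries without the block, a setting chosen after seeing the data, gave 1 (Krt18) for the combination against tamoxifen.

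In the gene lists, median-of-ratios scaling gave 10 calls among 17 tested epithelial factors for the combination against vehicle. Of all 12314 genes, 2226 were then higher and 2122 lower. Against estradiol it gave 11 among 16 EpCAM partners and 1 among 4 tested E-cadherin repressors, beside 3360 and 3027 of all genes. Against tamoxifen it gave 3 among EpCAM partners, beside 1067 and 729. Quantile normalization gave 1 among the repressors against estradiol, beside 2857 and 3240 of all genes. It gave 3 among EpCAM partners against tamoxifen, beside 906 and 621. The list counts are not split by direction, and nothing is read from them.

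Signs that turned belonged to differences that had not passed. Median-of-ratios scaling gave log2 differences of -0.11 for Krt7 and -0.0856 for Epcam with estradiol against vehicle, 0.25 for Krt18 and 0.0671 for Cdh1 with tamoxifen against estradiol, and 0.18 for Cdh1 with the combination against estradiol. Quantile normalization gave 0.27 for Krt19 with estradiol against vehicle, -0.33 and -0.28 for Epcam with tamoxifen and the combination against estradiol, -0.0869 for Ctnnb1 with tamoxifen against vehicle and -0.0105 for Ctnna1 with the combination against tamoxifen. With 1 library left out, estradiol against vehicle ran from -0.049 to 0.157 for Krt7 and -0.0255 to 0.189 for Epcam (both below 0 without estradiol 1). The combination against tamoxifen ran from -0.0563 to 0.297 for Epcam (below 0 without tamoxifen 1) and -0.0156 to 0.139 for Ctnna1 (below 0 without tamoxifen 2). The single vehicle library and groups of 2 limit the comparisons, and the depth of estradiol 2 is unknown.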
